A study of Mus musculus with 6 samples.

Results

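The 10 genes described here, Mixl1, Mesp1, Noto, Arg1, Fah, Optc, Chst7, Fut10, Klhl32 and Pde4d, had higher normalised counts in Foxa2-positive mesendoderm cells at day 3 than in embryonic stem cells before or endoderm cells after. They were selected on that pattern in the same 6 samples, out of 24054 genes in the tables, so their height in the middle population is a description, and calls on it carry no weight as a test. The samples came from 1 mouse embryonic stem cell (ESC) line, the double knock-in (DKI) line, in which Foxa2 is fused to the fluorescent protein Venus on one allele (Foxa2-Venus heterozygous) and Sox17 to Cherry on both alleles (Sox17-Cherry homozygous). All 3 populations carry both reporters. The d0 cells were collected at day 0 as Foxa2-Venus-neg/Sox17-Cherry-neg ESCs. The d3F cells were collected at day 3 of culture with Wnt3a and Activin A as Foxa2-Venus-pos/Sox17-Cherry-neg mesendoderm, and the d5FS cells at day 5 of the same culture as Foxa2-Venus-pos/Sox17-Cherry-pos endoderm. RNA-seq was available for 2 replicates of each population, described as independent biological replicates. The labels describe all libraries as made from ribosomal RNA-depleted total RNA, while the study's sample list names one library of each population mRNA and the other total RNA and does not say which replicate is which. According to the study's methods, undifferentiated ESCs were kept in medium with serum and LIF and then moved to endoderm medium for differentiation. Between populations, day and sorting gate changed together, and from d0 to both later populations the medium changed with them.

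In the gastrulating embryo, cells that leave the epiblast pass through the primitive streak, where Wnt and Nodal signalling switch on T-box and homeobox transcription factors (TFs). Many of these TFs are expressed briefly, in a progenitor that can still become mesoderm or endoderm, and are shut off once the cells commit. Activin A acts through the receptors of Nodal, and Wnt3a stabilises beta-catenin, which works on DNA through TFs of the TCF/LEF family.

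Rounded expected counts summed to between 16457720 and 22768689 per sample. They were scaled to a common library size with TMM factors and are given as CPM. All 10 genes were among the 14539 that passed the filter on low counts. Of 8 ESC marker genes, 6 fell from d0 to d3F, and 5 of 6 definitive endoderm markers rose, a list that includes both genes used for sorting. In these bulk samples, fewer cells that express a gene and less RNA of it per cell cannot be told apart.

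Among the 7 genes with an entry in the RefSeq promoter table (GRCm38.p6), 3 (Noto, Mesp1 and Pde4d) hold the letters CTTTGAA. These letters are a form of the core that TCF/LEF factors recognise. They were searched on either strand between 250 bases upstream and 50 bases downstream of the start. Other forms of that core were not searched and stand in lower case below. The 3 genes are shown here because Wnt3a was part of the medium. Their 250 upstream bases read as follows on the gene's own strand, and the capitals mark the match, which in each is the reverse complement TTCAAAG. The windows are chr6:85423636-85423885 on the plus strand for Noto, chr7:79793591-79793840 on the minus strand for Mesp1 and chr13:108653927-108654176 on the plus strand for Pde4d.
Noto: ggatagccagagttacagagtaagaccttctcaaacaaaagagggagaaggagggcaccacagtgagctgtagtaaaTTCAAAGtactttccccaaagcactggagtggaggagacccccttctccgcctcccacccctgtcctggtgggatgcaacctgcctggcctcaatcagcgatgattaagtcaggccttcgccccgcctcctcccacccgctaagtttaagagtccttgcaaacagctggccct
Mesp1: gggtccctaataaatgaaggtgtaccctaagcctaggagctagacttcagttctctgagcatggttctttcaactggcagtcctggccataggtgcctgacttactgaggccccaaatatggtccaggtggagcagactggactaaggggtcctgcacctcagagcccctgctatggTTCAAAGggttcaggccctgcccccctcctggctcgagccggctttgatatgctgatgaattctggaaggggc
Pde4d: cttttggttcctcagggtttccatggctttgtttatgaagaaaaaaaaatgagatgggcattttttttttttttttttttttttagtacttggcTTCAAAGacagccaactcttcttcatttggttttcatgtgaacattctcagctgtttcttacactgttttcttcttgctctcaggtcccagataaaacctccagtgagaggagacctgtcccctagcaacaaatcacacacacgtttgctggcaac

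The match begins at position -173 from the start in Noto, at -73 in Mesp1 and at -156 in Pde4d. The same letters occur in 5.14% of all 32851 promoters of the table. For Pde4d the RefSeq start lies 204.2 kb inside the gene as GENCODE draws it, so the window is that of an internal start. For Mesp1 it lies 0.198 kb inside, so most of that window is within the gene as GENCODE draws it. Of the other motifs searched on both strands, the T-box core GGTGTGA was found in 1 of the 7 windows, that of Mesp1, beginning at position 6 after the start, and in 3.98% of all promoters. The forkhead form TGTTTAC (3.65% of all promoters), the FoxH1 form AATCCACA (0.855%) and the GATA family form AGATAAG (3.04%) were found in 0 of the 7. Neither the bicoid-type core GGATTA (7.06%) nor the paired-type homeobox pattern (TAAT and its reverse complement with 3 bases between them, in 0.487%) was found in them either. A match of letters describes the sequence and shows no binding. Only these exact letters were searched, and other forms of the same cores were not counted. A count of 0 therefore does not show that such sites are absent. The 3 promoters also differ in base composition, with a GC content of 54.8% in Noto, 55.2% in Mesp1 and 38.8% in Pde4d, against a median of 52.4% over the table. Mixl1, Arg1 and Fut10 have no entry.

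The members Noto, Mixl1 and Mesp1 encode TFs of the primitive streak and its derivatives. Noto (chr6:85423886-85428877, plus strand) encodes the homeobox TF of the node and notochord, the midline structure of the embryo. Its CPM was 0.0877 and 0.154 in the 2 d0 replicates, 6.25 and 3.64 in d3F, then 0.0567 and 0.229 in d5FS. These rest on 2 and 3 counts in d0, on 154 and 72 in d3F, and on 1 and 4 in d5FS. Noto was thus near the limit of detection on both sides of a d3F mean of 4.95 ± 1.85 CPM (SD, n = 2), which was 41.0 times the d0 mean and 34.6 times the d5FS mean. The lower d3F replicate was 15.9 times the highest of the other 4 samples, the widest margin among the 10 genes.

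Mixl1 (chr1:180693043-180697034, minus strand) encodes a paired-like homeobox TF of the streak, where mesoderm and endoderm precursors arise. Its CPM was 1.05 and 0.615 in d0, 32.3 and 17.7 in d3F, then 3.86 and 4.30 in d5FS. The d3F mean was 30.0 times that of d0 but 6.14 times that of d5FS. Mixl1 therefore kept 16.3% of its d3F level in d5FS, whereas Noto kept 2.89%. Both d5FS samples lay above both d0 samples, an order whose share over all tested genes was not counted.

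Mesp1 (chr7:79792241-79793788, minus strand) encodes a basic helix-loop-helix TF that marks the earliest cardiovascular mesoderm. Its CPM was 0.132 and 0.154 in d0, 1.22 and 3.28 in d3F, then 0.0567 and 0 in d5FS. It had the lowest d3F counts of the 10 genes, with 30 in replicate 1 and 65 in replicate 2, and a single count in the d5FS samples together. The ratio of summed counts, d3F over d5FS, was 75.0 and rests on that single count. Reads are not independent molecules.

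Arg1 and Fah are enzymes better known from liver. Arg1 (chr10:24915221-24927484, minus strand) encodes the cytosolic arginase, which splits arginine into ornithine and urea. Its CPM was 0.439 and 0.359 in d0, 4.47 and 5.46 in d3F, then 0.397 and 0.115 in d5FS. The d3F replicates lay close together and at least 10.2 times above every other sample. Arg1 is also strong in some macrophages. The summed CPM of 5 macrophage markers was 3.45 and 3.79 in d3F, below its 8.29 and 6.15 in d0 and its 20.9 and 7.11 in d5FS. Most of the sum came from Cd68, with 2.68 and 3.23 CPM in d3F. Ptprc, which defines white blood cells, had 0.0406 and 0 CPM in d3F, and 0 of the 3 tested markers were called by edgeR or DESeq2 from d0 to d3F, with 1 lower at an unadjusted p under 0.05. The part of macrophages in the level of Arg1 was not tested.

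Fah (chr7:84585159-84606722, minus strand) encodes fumarylacetoacetate hydrolase, the last enzyme of tyrosine breakdown. Its CPM was 14.7 and 10.4 in d0, 41.6 and 32.2 in d3F, then 7.72 and 8.25 in d5FS. Fah was present in all 3 populations, and its d3F mean was 2.94 times the d0 mean and 4.62 times the d5FS mean. It had the narrowest margin of the 10, with the lower d3F replicate 2.19 times the highest other sample. Summed over 5 hepatocyte markers, CPM did not exceed 0.820 in any sample, and Cyp3a11, one of them, had 0 counts throughout.

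Optc, Chst7 and Fut10 build or modify matrix and sugar chains. Optc (chr1:133897199-133907999, minus strand) encodes opticin, a small leucine-rich proteoglycan known from the vitreous of the eye. Its CPM was 0 and 0.0513 in d0, 2.40 and 5.51 in d3F, then 0.170 and 0.172 in d5FS. Only 1 count was seen in the d0 samples together and 168 in d3F, a ratio of 160 that rests on that single d0 count.

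Chst7 (chrX:20059560-20097521, plus strand) encodes a sulfotransferase that adds sulfate to the sugars of chondroitin-type chains. Its CPM was 3.42 and 2.31 in d0, 12.3 and 15.3 in d3F, then 2.44 and 1.66 in d5FS. Fut10 (chr8:31187331-31261738, plus strand) encodes an enzyme of the fucosyltransferase family. Its CPM was 9.82 and 7.53 in d0, 23.6 and 28.9 in d3F, then 5.96 and 5.45 in d5FS. Both genes were expressed in every sample, and their d3F means stood 4.83 and 3.03 times above d0.

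The remaining members act in signalling and protein turnover. Pde4d (chr13:108449948-109953461, plus strand) encodes a phosphodiesterase that breaks down the second messenger cAMP. Its CPM was 5.79 and 6.15 in d0, 20.9 and 19.4 in d3F, then 4.31 and 5.85 in d5FS. The 4 samples outside d3F lay within a narrow band, and the d3F mean was 3.38 times that of d0 and 3.97 times that of d5FS. Klhl32 (chr4:24612554-24851124, minus strand) encodes a protein of the Kelch-like family, many members of which bring substrates to a ubiquitin ligase. Its CPM was 0.526 and 0.871 in d0, 6.41 and 4.09 in d3F, then 0.340 and 0.573 in d5FS.

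**Figure D1:**
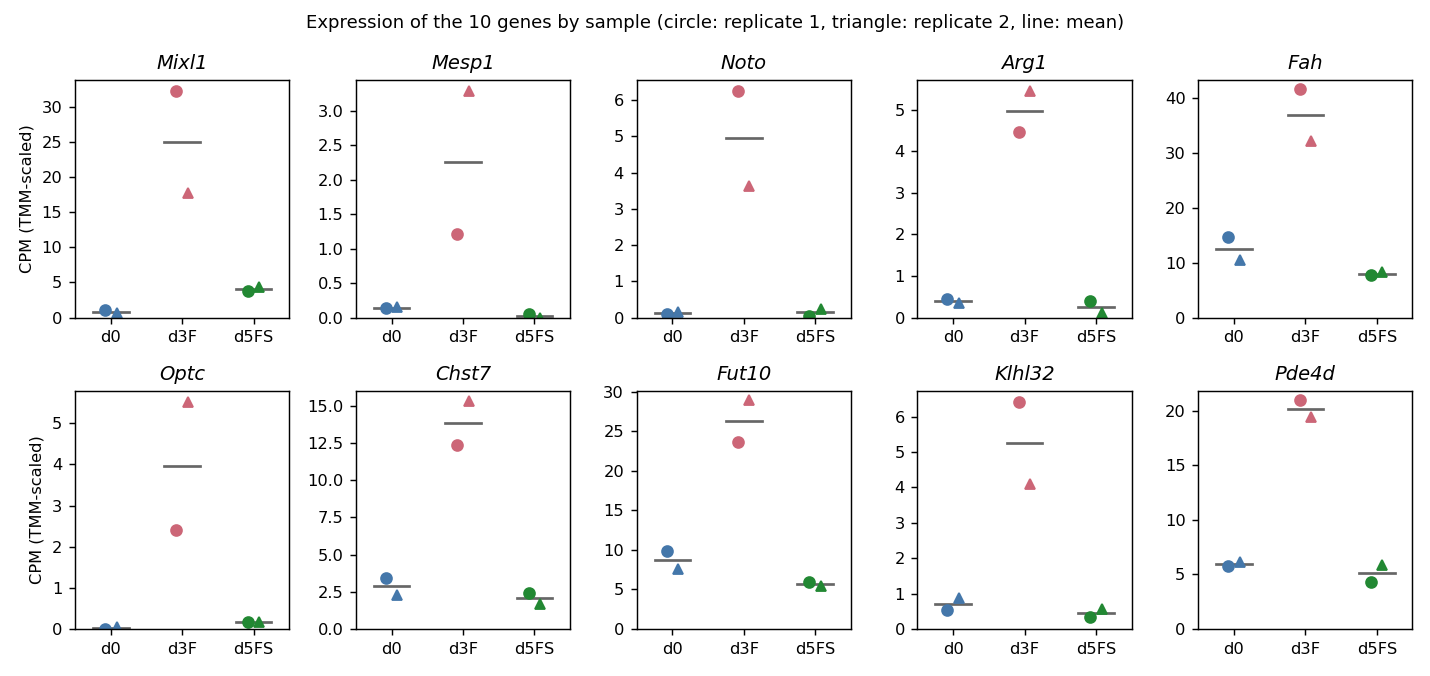
CPM (TMM-scaled, linear axis from 0, own scale for each gene) of the 10 genes in d0, d3F and d5FS, with circles for replicate 1, triangles for replicate 2 and a line at the mean of 2. Both d3F points lie above the other 4 in each panel, from 2.19 times the highest of them in Fah to 15.9 times in Noto.

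The fall after d3F took the genes to different depths. As a share of the d3F mean, the d5FS mean was 1.26% in Mesp1, 2.89% in Noto, 4.33% in Optc, 5.16% in Arg1 and 8.69% in Klhl32. It was 14.8% in Chst7, 16.3% in Mixl1, 21.7% in both Fut10 and Fah, and 25.2% in Pde4d. Low on the d0 side were Optc, at 0.649% of the d3F mean, Noto at 2.44%, Mixl1 at 3.33%, Mesp1 at 6.34% and Arg1 at 8.04%. Klhl32 stood at 13.3%, Chst7 at 20.7%, Pde4d at 29.6%, Fut10 at 33.0% and Fah at 34.0%. The genes thus ranged from Noto, Mesp1 and Optc, which were near absent outside d3F, to Fah, Fut10 and Pde4d, which were present throughout. Among the TFs, Mixl1 kept the largest share of its d3F level in d5FS.

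The comparison of d0 with d5FS asks whether the genes came back to the ESC level. The choice of genes used both levels, each against d3F, but not the difference between them. Mesp1, Noto, Optc and Arg1 passed the filter on low counts only through d3F, so no test of d0 against d5FS is read for them. By edgeR's quasi-likelihood test over all genes, with Benjamini-Hochberg adjustment, Mixl1 was higher in d5FS than in d0, by a log2 fold change of 2.27 (SE 0.48, adjusted p = 0.0143, 2 samples against 2). Over all tested genes, 12.4% were called higher in this comparison and 10.4% lower. With Mesp1, Noto, Optc and Arg1 left aside, 1 member was called higher and 0 lower. At an unadjusted p under 0.05, as by the DESeq2 Wald test, the counts were likewise 1 and 0. The call of Mixl1 did not hold in every test. It was lost in the stricter DESeq2 test, whose null is a log2 fold change of up to 1 (2.25, adjusted p = 0.208). Without single samples, the log2 fold change of Mixl1 in edgeR was 1.96 to 2.70. Such fits leave a group without a replicate and cannot show whether the call rests on single samples.

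No difference between d0 and d5FS passed the edgeR test for Fah, Fut10, Chst7, Pde4d and Klhl32, which does not show that their levels were equal. For the better counted genes the fitted changes lay below 0. The log2 fold change was -0.65 (SE 0.33, adjusted p = 0.186, edgeR) in Fah, -0.61 (SE 0.34, adjusted p = 0.222) in Fut10, -0.48 (SE 0.44, adjusted p = 0.455) in Chst7 and -0.23 (SE 0.35, adjusted p = 0.666) in Pde4d. Both d5FS samples lay below both d0 samples for Fah and Fut10, and the samples overlapped for Chst7 and Pde4d. The share of all tested genes with such an order was not counted, so nothing follows from it. Klhl32 (-0.60, SE 0.63) had a wide error. Arg1 had 10 and 7 counts in d0 and 7 and 2 in d5FS, and Noto had 2 and 3, then 1 and 4. Optc and Mesp1 rest on 7 counts each over d0 and d5FS. The ratio of summed counts, d5FS over d0, was 7.24 in Optc and 0.201 in Mesp1, each with a single count on one side.

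**Figure D2:**
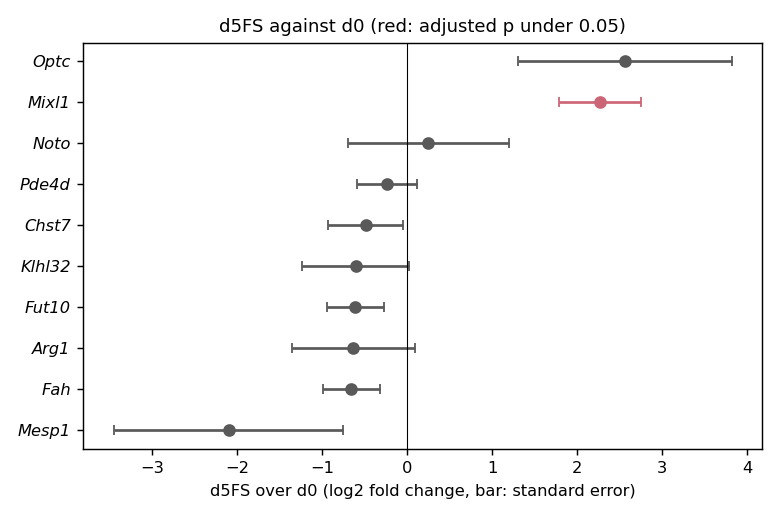
Log2 fold change from d0 to d5FS of the 10 genes from the edgeR fit (horizontal axis), with bars of 1 standard error. Mixl1 at 2.27 is the gene in red, with an edgeR adjusted p of 0.0143, and Mesp1 and Optc have the longest bars. Mesp1, Noto, Optc and Arg1 rest on few counts in both populations, and no test is read for them.

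How far each gene rose above both neighbours in time was summarised as its peak height, the log2 ratio of the lower d3F sample to the highest other sample after adding 0.25 CPM. It uses the values that chose the genes. Both d3F samples lay above the other 4 in 850 genes, or 5.85% of those tested, and in 73 of them by at least 2 times, all 10 members included. Ranked by peak height, Noto stood at place 3 with 3.02, Arg1 at 4 with 2.78, Optc at 5 with 2.65, Mixl1 at 6 with 1.98 and Klhl32 at 8 with 1.95. Mesp1 followed at 10, Chst7 at 14, Pde4d at 20, Fut10 at 38 and Fah at 51.

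In all, 15 genes were called higher from d0 to d3F and then lower from d3F to d5FS by edgeR (adjusted p under 0.05 and a change above 2 times), and 49 with the replicate number as a block. Beside the 10 members they were T, Chrd, Apln, Sprr2a1 and Sprr2a2. Over all tested genes 2.8% were called higher and 1.9% lower from d0 to d3F, and 1.08% were called higher and 0.461% lower from d3F to d5FS. Since the members were chosen on this contrast, nothing follows for them from the count. Over all samples, 67 genes were called lower from d3F to d5FS. That number fell whenever a d3F or d5FS sample was left out, which leaves its group without a replicate. Such fits cannot show whether the calls rest on single samples.

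**Figure D3:**
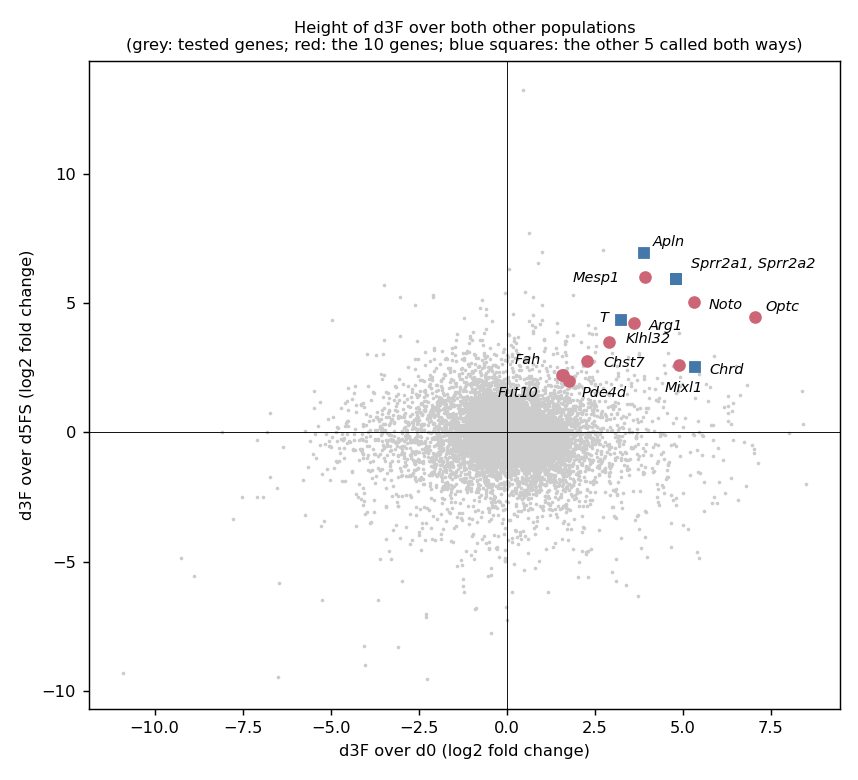
Log2 fold change of d3F over d0 (horizontal) and of d3F over d5FS (vertical) from the edgeR fit for 14539 tested genes in grey. The 10 members (red circles) and the 5 other genes called both ways (blue squares) lie in the upper right, and among these 15 Optc is farthest right at 7.04 and Apln is highest at 6.92.

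The 10 genes outside the members with the highest peak height, at a d3F mean of at least 1 CPM over 6 samples, were Sprr2a1, Sprr2a2, Apln, Cdh11, Ldb2, T, Wnt2, Cacna2d2, Pdgfrl and Slit3. Sprr2a1 and Sprr2a2, near-identical genes of the skin barrier, had the same value in every sample, 51.2 and 26.6 CPM in d3F and at most 1.64 elsewhere, so their reads cannot be assigned to either. Apln, the ligand of the apelin receptor, had 3.29 and 0.461 CPM in d0, 43.2 and 13.5 in d3F, then 0.340 and 0.115 in d5FS. T (Brachyury), the T-box TF of the streak, had 19.8 and 5.13 CPM in d0, 169 and 69.1 in d3F, then 8.51 and 3.27 in d5FS. All 3 populations thus held T reads, and its peak height of 1.79 was below that of Mixl1. Cdh11, an adhesion molecule of mesenchyme, had 1.89 and 0.666 CPM in d0, 16.3 and 45.7 in d3F, then 3.18 and 4.24 in d5FS.

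Many streak and midline genes, in lists drawn up around the members' roles, were called higher in d3F than in d0, and T and Chrd were also called lower in d5FS than in d3F. Of 12 tested streak genes other than Mixl1 and Mesp1, 5 rose from d0 to d3F (T, Eomes, Evx1, Fgf8 and Fgf5), and 1 of them, T, fell from d3F to d5FS. Fgf8, a growth factor of the streak, had 1.36 and 2.0 CPM in d0, 115 and 148 in d3F, and still 60.9 and 96.1 in d5FS. Eomes, a T-box TF needed for endoderm, stayed at 118 and 118 CPM in d5FS after 99.2 and 151 in d3F. Unlike Mixl1, neither had both d3F samples at least 2 times above the d5FS samples.

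Of 9 anterior streak, node and notochord genes other than Noto, 7 rose from d0 to d3F (Gsc, Lhx1, Chrd, Nog, Shh, Foxj1 and Otx2). Of these 7, 1 (Chrd) was called lower from d3F to d5FS. Chrd, a secreted BMP antagonist, had 0.921 and 0.820 CPM in d0, 49.4 and 22.3 in d3F, then 7.15 and 5.22 in d5FS. Foxj1, a TF of motile cilia, had 84.0 and 28.5 CPM in d3F and 15.9 and 11.9 in d5FS, a change that missed the threshold (log2 fold change -2.02, edgeR adjusted p = 0.119) but passed with a replicate block (-1.84, edgeR adjusted p = 0.0271). The call of Otx2 from d0 to d3F was lost with that block (2.96, edgeR adjusted p = 0.0505). Of the 10 tested heart and vessel genes, 0 were called by edgeR from d0 to d3F, where Mesp1 peaked, though 3 were higher at an unadjusted p under 0.05 and 3 by the DESeq2 Wald test. The share of all tested genes at that unadjusted threshold was not counted. In the same list Myl7, the atrial myosin light chain, rose from d3F to d5FS, from 5.64 and 16.6 to 367 and 137 CPM.

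The tested pathway partners of Fah and Arg1 were not called by edgeR in either comparison with d3F, but single ones were in other fits. Among other genes of tyrosine breakdown, Tat, Hpd and Hgd were near 0 in all samples, at most 0.454 CPM, and were not tested, while Gstz1, the enzyme just before Fah, was. Gstz1 had 6.84 and 8.10 CPM in d0, 14.3 and 19.9 in d3F, then 22.1 and 38.3 in d5FS, and was not called from d0 to d3F (log2 fold change 1.19, edgeR adjusted p = 0.118), though with a replicate block it was called higher (1.17, edgeR adjusted p = 0.0376). Of 6 tested genes of the urea cycle and arginine use, 0 were called by edgeR in either comparison with d3F. Over all tested genes 2.8% were called higher and 1.9% lower from d0 to d3F, and 1.08% and 0.461% from d3F to d5FS. A count of 0 among 6 is near those shares. At an unadjusted p under 0.05, 2 of the 6 were lower from d0 to d3F, and the DESeq2 Wald test called 1 of them lower. From d3F to d5FS, 3 were lower at an unadjusted p under 0.05, and the Wald test called 1 lower, as did edgeR with a replicate block (Odc1, -1.46, adjusted p = 0.0325). From d0 to d5FS, edgeR called 5 of the 6 lower and Gstz1 higher, against 10.4% lower and 12.4% higher over all tested genes. Ass1, which supplies the substrate of argininosuccinate lyase upstream of Arg1, had 32.2 and 44.5 CPM in d0 and 17.5 and 18.3 in d3F, and Otc had 0 counts in all samples.

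Some relatives of the remaining members changed as well. Of 10 tested sulfotransferases other than Chst7, Chst11 and Chst15 rose and Chst10 fell from d0 to d3F, and none of these was called from d3F to d5FS. Of 8 tested fucosyltransferases other than Fut10, Fut1 rose, from 1.40 and 1.28 CPM in d0 to 8.69 and 8.08 in d3F, and stood at 19.4 and 16.1 in d5FS. Of 8 tested cAMP phosphodiesterases other than Pde4d, Pde3a rose, from 0.570 and 0.461 CPM to 2.80 and 6.52. The closest relatives of Pde4d were lower and not called, with 3.82 and 4.19 CPM in d3F for Pde4a, 4.87 and 2.78 for Pde4b, and 1.62 and 1.47 for Pde4c. Of 6 tested small leucine-rich proteoglycans other than Optc, 0 were called by edgeR or DESeq2 from d0 to d3F, and 0 had an unadjusted p under 0.05. In all, the lists named so far and the Kelch-like list held 100 tested genes. From d0 to d3F 18 were called higher and 2 lower, against 2.8% and 1.9% of all tested genes. Of the 18, 5 were streak genes and 7 were anterior streak, node and notochord genes. From d3F to d5FS 1 was called higher and 2 lower, against 1.08% and 0.461%. Both d3F samples lay above the other 4 in 11%, against 5.85%. The lists were drawn up around the members' roles with earlier results of these data known. These shares therefore give no test of an excess over all genes. The 18 became 7 without d3F replicate 2, 10 without d0 replicate 2 and 11 without either d5FS sample in turn. The 2 lower, T and Chrd, became 0 without d3F replicate 1 and 0 without either d5FS sample in turn, while 3 were called without either d0 sample.

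The genes beside the members on the chromosome, 0 of which overlap a member, were compared with them. Of the 20 nearest tested genes, 1 on each side, 0 were called by edgeR or DESeq2 from d0 to d3F. At an unadjusted p under 0.05, 0 were higher and 3 lower, a threshold for which the share over all tested genes was not counted. Over all tested genes, edgeR called 2.8% higher and 1.9% lower, so a count of 0 among 20 is near that share. The gap to the member ranged from 1.54 kb (Med23, beside Arg1) to 1780 kb (Kdm6a, beside Chst7). From d3F to d5FS 0 were called by edgeR, against 1.08% higher and 0.461% lower over all tested genes. At an unadjusted p under 0.05, 2 were higher and 3 lower, and the DESeq2 Wald test called 1 each way. Mesp2, the relative of Mesp1 that lies 16.9 kb away, had the lowest fitted change from d0 to d3F, -3.34 on the log2 scale (edgeR adjusted p = 0.0692), and with a replicate block it was called lower (-3.44, edgeR adjusted p = 0.0379). Its CPM was 1.10 and 1.85 in d0, 0.0406 and 0.253 in d3F, then 0.113 and 0.229 in d5FS, so that the d3F samples of Mesp2 lay below those of d0 where those of Mesp1 lay above. Lin9, 2.35 kb from Mixl1, had 24.3 and 21.4 CPM in d0 and 23.5 and 19.7 in d3F. Smyd5, 3.11 kb from Noto, had 102 and 129 in d0 and 92.0 and 122 in d3F. Med23, 1.54 kb from Arg1, had 81.5 and 55.3 in d0 and 65.9 and 47.8 in d3F. Only Depdc1b, 42.2 kb from Pde4d, had both d3F samples above the other 4, at 23.7 and 24.9 CPM against at most 22.0. The share of all tested genes with that pattern was 5.85%.

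**Figure D4:**
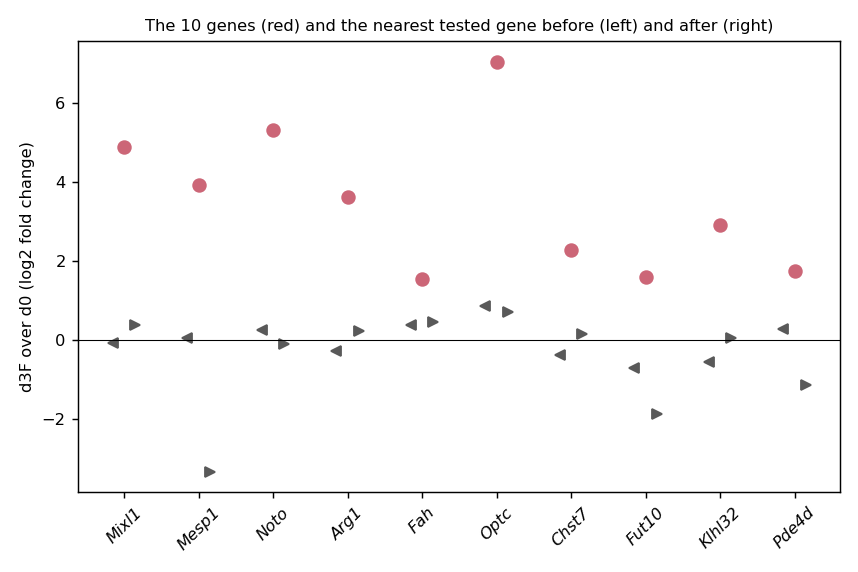
Log2 fold change of d3F over d0 (vertical axis, edgeR fit) for each of the 10 genes (red) and its nearest tested gene before (left triangle) and after it (right triangle) in chromosome coordinates. The 20 neighbours lie between -3.34, Mesp2 beside Mesp1, and 0.87, Atp2b4 beside Optc.

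Levels can be compared between genes only per transcript length, for which TPM was used. In d3F, Fah was highest with 14.8 ± 7.69 TPM (SD, n = 2), ahead of Mixl1 with 6.92 ± 4.94, Fut10 with 4.22 ± 0.919 and Chst7 with 3.63 ± 0.764. Arg1 followed with 2.04 ± 0.453, Noto with 2.03 ± 1.39, Pde4d with 1.60 ± 0.651, Optc with 1.40 ± 0.184, Klhl32 with 1.37 ± 0.870 and Mesp1 with 1.22 ± 0.396. Neighbours in this order overlapped in their replicates, except Chst7, whose lower replicate of 3.09 TPM was above the higher one of Arg1, 2.36. All 10 genes were modest transcripts, and 2738 genes had a higher mean TPM in d3F than Fah.

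The d3F replicates differed in size for some members. Mixl1 was higher in replicate 1, at 32.3 against 17.7 CPM, and so were Noto and Klhl32, while Mesp1 and Optc were higher in replicate 2. In CPM, 5 of the 10 were higher in replicate 1, but in TPM 8 were. The mean effective transcript length, weighted by TPM, was 621 bases in d3F replicate 1 and 421 in replicate 2, a difference also seen in d0 (631 and 351) and d5FS (428 and 298). The part of length or library type in the TPM differences was not tested. The absolute log2 difference between the d3F replicates had a median of 0.49 over the members and 0.35 over all tested genes.

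Most members are measured on 1 RefSeq transcript, so that no division of reads among isoforms entered their counts. The exceptions are Optc with 4 transcripts, Klhl32 with 2 and Fut10 with 5. The estimated mean transcript length of Klhl32 was 2386 bases in the d0 and d3F samples and 2287 in both d5FS samples, the latter on 6 and 10 counts. That of Fut10 stayed between 3319 and 3469 bases in all samples.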

How the data were processed

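RNA-seq of d0, d3F and d5FS DKI cells was used, 2 replicates each. According to the study's methods, ribosomal RNA-depleted RNA was sequenced as 100 bp paired ends. Per the submitters' processing notes and methods, STAR placed the reads on mm10 and RSEM assigned them to RefSeq transcripts, in versions that are not given in the sources used here. For each sample a table by gene was used. Its expected counts, as deposited, are estimated read pairs per gene and are raw. The TPM values the authors deposited are shares per effective length, with an equal total for all samples. The deposited transcript lengths are means over the transcripts of a gene weighted by their share. The deposited FPKM values were not used.

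Expected counts were rounded (16457720 to 22768689 in total per sample) and filtered with filterByExpr (14539 of 24054 genes). They were scaled by TMM and fitted by edgeR 4.0.16 in R 4.3.3, with 1 quasi-likelihood model over all 6 samples and 3 residual degrees of freedom. A call required both a fold change above 2 in either direction and an adjusted p (Benjamini-Hochberg) below 0.05. Counts at an unadjusted p under 0.05 are given without the share of all tested genes at that threshold, which was not counted. With 2 samples against 2, an exact permutation test cannot go below 0.33, so none was run. Replicates differed by more than sampling noise, with a chi-square per degree of freedom of 84.1 or more. Checked on simulated data for d0 to d5FS over 14539 genes, the share of changed genes recovered was 65% at a log2 change of 2 and 94% at 4, with 4.217% false calls.

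The members and gene lists were chosen with earlier results of these data known, and the promoter motifs after the data were seen. Beside the members, the text names the 10 other genes with the highest peak height, the nearest tested gene on each side of a member, and the genes of each list that were called in a comparison with d3F, with at most 3 more per list. Positions are those of GENCODE M21 (mm10). Promoters are RefSeq sequences (GRCm38.p6) of 250 bases before to 50 after the start. Alternatives were DESeq2 1.42.0 (size factors, the Wald test, the test with a null of up to 1 on the log2 scale), other filters, a replicate block, 2-group fits and leaving out each sample. The authors compared populations with DESeq2.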

Additional observations from a re-analysis of the deposited data

How the results depend on the processing

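All 10 members had both d3F samples above all others by the way they were chosen, so leaving out a sample cannot test that pattern. The median peak height of the members ranged from 1.51 to 2.10 over other scalings and pseudocounts and from 1.91 to 2.22 without single samples. With 1 d3F sample left out or fewer others to exceed, the number of all tested genes with this pattern was 1243 to 1881, and 73 when a margin of 2 times was asked for. The median log2 difference between the d3F replicates of the members, -0.083 in TMM CPM, ranged from 0.088 to 0.58 with other scalings, the latter in TPM. The ratios of Mesp1, Optc and Noto rest on few counts outside d3F, and 2 replicates limit every test.

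From d0 to d5FS, 1 member was called higher, and 0 in the stricter DESeq2 test (null: a log2 fold change of up to 1). The log2 fold change of Mixl1, 2.27 as reported, was 2.25 in that DESeq2 test and 1.96 to 2.70 without single samples. Fits without a sample leave its group with no replicate and cannot show whether the call rests on single samples.

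Counts over all genes moved widely. From d0 to d3F, 407 higher and 276 lower became 844 and 642 by the DESeq2 Wald test, 219 and 164 in the stricter DESeq2 test, 1101 and 832 with no filter, 218 and 139 with at least 10 counts in every sample, and 240 higher in the fit of only those 2 groups. From d3F to d5FS, 157 higher and 67 lower became 603 and 454 by the Wald test, 760 and 663 with no filter, 36 lower with at least 10 counts, and 376 and 153 in the 2-group fit. From d0 to d5FS, 1800 and 1513 became 619 and 387 in the stricter DESeq2 test. Without single samples, the ranges were 87 to 500 higher and 10 to 477 lower from d0 to d3F, 0 to 339 and 0 to 158 from d3F to d5FS, and 724 to 1604 and 323 to 1433 from d0 to d5FS. From d0 to d3F, the lowest values came without d3F replicate 2 (87 and 10), with 144 and 128 without d0 replicate 2, 295 and 78 without d3F replicate 1, 244 and 162 without d5FS replicate 1 and 231 and 155 without d5FS replicate 2, and the highest came without d0 replicate 1. From d3F to d5FS, both fell to 0 without d3F replicate 1, and 17 and 0 were left without d5FS replicate 1, 19 and 3 without d5FS replicate 2 and 48 and 38 without d3F replicate 2, while 338 and 158 were called without d0 replicate 1 and 339 and 152 without d0 replicate 2. From d0 to d5FS, the lowest came without d5FS replicate 1, then without d5FS replicate 2 (976 and 557) and d0 replicate 2 (1069 and 870). The causes were not tested.

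Of the list genes, 18 higher and 2 lower from d0 to d3F became 10 and 1 with at least 10 counts and 1 lower in the stricter DESeq2 test (7 to 21 and 0 to 2 without single samples). From d3F to d5FS, 1 higher and 2 lower became 3 and 8 by the Wald test, 4 and 9 with no filter, 2 higher in the 2-group fit, and 1 lower both with at least 10 counts and in the stricter DESeq2 test (0 to 1 and 0 to 3 without single samples). Of the neighbouring genes, 0 called from d0 to d3F became 2 lower with no filter (0 to 0 without single samples). From d3F to d5FS, 0 became 1 higher and 1 lower by the Wald test, 2 higher and 1 lower with no filter, and 1 lower in the 2-group fit (0 to 0 higher and 0 to 1 lower without single samples).

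Replicate numbers 1 and 2 recur in every population, and with a replicate block the counts were 810 higher and 510 lower from d0 to d3F and 476 and 442 from d3F to d5FS over all genes. Of the list genes it called 2 higher and 4 lower from d3F to d5FS, and of the neighbours 1 lower from d0 to d3F and 1 higher and 1 lower from d3F to d5FS. Same-numbered samples deviated together across genes, with correlations of 0.314, 0.324 and 0.278, but the labels do not say that a number marks a shared batch, so no pairing was assumed. The block left the members' calls from d0 to d5FS at 1 higher, Mixl1 at 2.33 (edgeR adjusted p = 0.00687).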

Other observations

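Klhl6 and Klhl13, Kelch-like genes other than Klhl32, had larger fitted changes than it from d0 to d3F, and neither was called from d3F to d5FS. Klhl6, an adaptor known from B cells, rose from 0.132 and 0.359 CPM in d0 to 25.4 and 138 in d3F, and stood at 23.1 and 31.4 in d5FS (log2 fold change 8.38 from d0 to d3F, edgeR adjusted p = 0.00903). Klhl13, an adaptor that acts in cell division, fell from 248 and 635 CPM in d0 to 33.0 and 23.4 in d3F, and stood at 49.3 and 32.7 in d5FS (-3.97, edgeR adjusted p = 0.0103). Klhl30 rose from 0.132 and 0.359 to 1.62 and 5.31 CPM. Of the 30 Kelch-like genes tested beside Klhl32, 2 were called higher and 1 lower from d0 to d3F, and 0 had both d3F samples above the other 4.

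The summed CPM of 7 fibroblast markers was 9.65 and 14.6 in d0, 31.7 and 77.0 in d3F, then 232 and 195 in d5FS. It was highest in d5FS, where the members were low. The largest part of it in d5FS was Col1a2, at 110 and 156 CPM. Thy1 was lower in d5FS (1.02 and 0.459 CPM) than in d0 (3.07 and 1.49). Over all samples Dcn was at most 0.745 CPM and Lum at most 0.0505. The summed CPM of 6 markers of extraembryonic endoderm was 29.0 and 78.6 in d0, 16.8 and 16.4 in d3F, then 51.3 and 97.3 in d5FS. That sum was lowest where the members were highest. Most of it in d0 and d3F came from Rhox5, with 25.4 and 75.2 CPM in d0 and 15.9 and 14.0 in d3F. The part of fibroblasts or extraembryonic endoderm in the members' values was not tested.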
